A study of Mus musculus with 3 samples.

Results

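The NF-kB family and its feedback inhibitors were followed through the response of murine bone marrow derived macrophages (BMDMs) to borrelial lipoproteins (BbLP). The group holds 10 of the 32285 genes in the deposited matrices, listed by gene symbol with earlier results of these data known: the 5 subunits *Nfkb1*, *Nfkb2*, *Rel*, *Rela* and *Relb*, and the 5 inhibitors *Nfkbia*, *Nfkbie*, *Nfkbiz*, *Tnfaip3* and *Bcl3*. The BMDMs came from the marrow of female C3H/HeN mice aged 6 to 8 weeks and were grown for 8 days in medium with L929-conditioned supernatant before plating. Single-cell RNA-Seq was performed on 1 library each of cells given PBS (UI), cells treated with BbLP at 1 µg/mL for 1 hour (LP1) and cells treated with the same dose for 4 hours (LP4). The paper's methods describe pooled marrow for the culture, but for this experiment BMDMs from 3 mice that were treated independently. The cells of 3 wells were pooled into each library. The spread between cultures was thus not measured, and no test between conditions was possible. UI cells were collected with the LP4 cells at 4 hours, so the contrast of LP1 with UI also holds a difference in time in culture.

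NF-kB is a set of dimeric transcription factors that rest in the cytoplasm, bound by inhibitors of the IkB family. Ligands of Toll-like receptors, lipoproteins among them, activate a kinase that marks IkB for destruction, and the freed dimers enter the nucleus and switch on inflammatory genes. Several of those target genes encode inhibitors of the same pathway, which makes it a textbook case of negative feedback in macrophages.

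The kept cells numbered 6071 in UI, 5065 in LP1 and 4670 in LP4, and their summed unique molecular identifiers (UMIs, 1 per captured transcript) were 35688939, 52475723 and 61402275. A level below is a gene's UMIs per 1000000 of those UMIs (CPM). All intervals are at the 95% level and cover counting error only. The median number of UMIs per cell was 5133 in UI, 9343 in LP1 and 11784 in LP4, and 10 barcodes were shared by UI and LP1, 7 by UI and LP4 and 4 by LP1 and LP4. All 12 macrophage markers were found in every library, *Lyz2* in 99.9% and *Csf1r* in at least 94.5% of cells but *C1qa*, *C1qb* and *Mertk* in only 15.0% to 24.3%, and *Csf1r* stood at 769 CPM in UI, 522 in LP1 and 421 in LP4. All 8 markers of T, NK or B cells were under 1 CPM throughout. The 12 neutrophil markers summed to 426 CPM in UI, 321 in LP1 and 643 in LP4, with *Ly6g* under 1 CPM in each. As an alternative, the neutrophil-like, dendritic cell-like and stromal cell-like clusters were left out together, so the part of neutrophils alone was not measured. This moved no log2 ratio of a member across 0. It moved *Nfkbia* outside its counting interval, from -0.210 to -0.232 in LP4 over UI and from -0.894 to -0.914 in LP4 over LP1.

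The members did not divide by role. *Nfkbia* and *Nfkbiz* were highest at 1 hour, whereas *Bcl3*, *Nfkb2*, *Nfkbie* and *Rela* were below UI at 1 hour and above it at 4 hours. *Rel* and *Relb* were lower in CPM at each later time. These levels are shares of a library's UMIs, and every member had more UMIs per cell in LP1 and LP4 than in UI. *Relb*, for example, gave 0.80 UMIs per cell in UI, 1.20 in LP1 and 1.27 in LP4. *Bcl3* had the largest ratio to UI, 2.98 times higher in LP4 than in UI, and *Nfkbia* had the largest at 1 hour, 1.61 times higher in LP1 than in UI. *Nfkb1* and *Tnfaip3* stayed within 1.20 and 1.16 times across the 3 libraries.

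**Figure D1:**
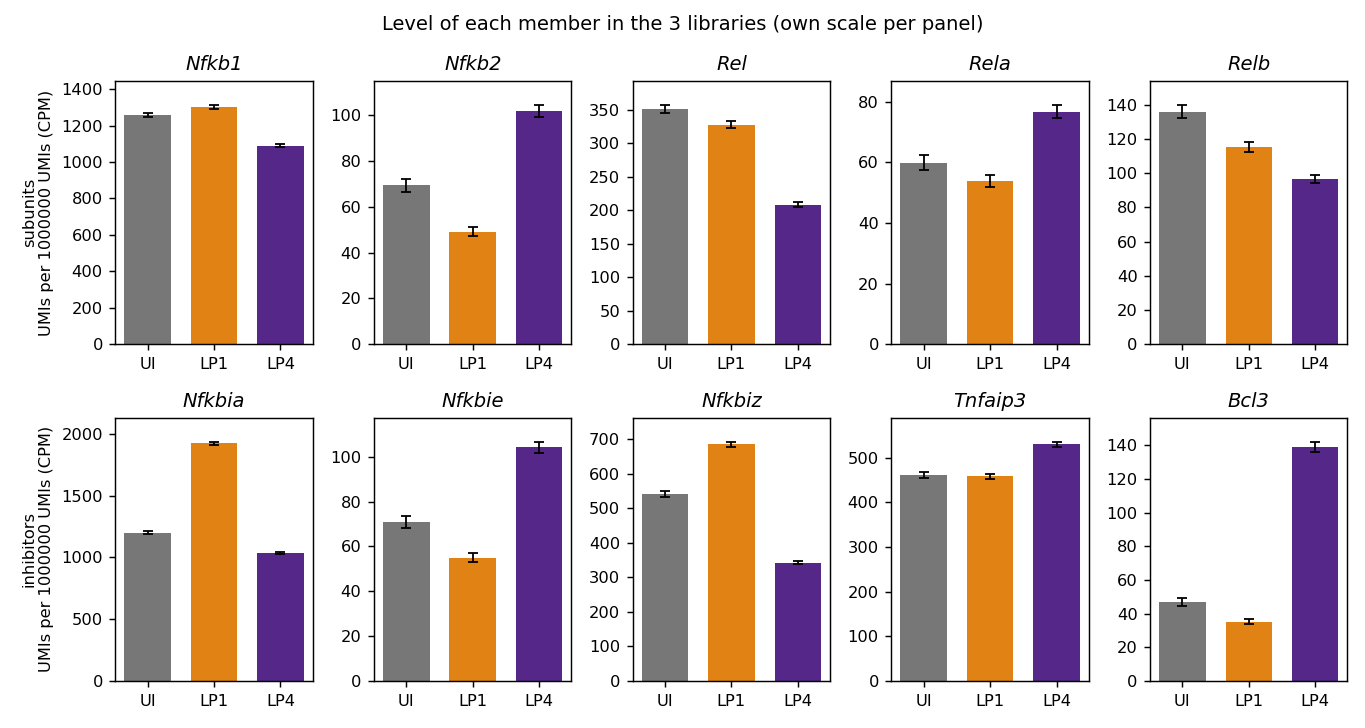
Level of each member in UMIs per 1000000 UMIs (CPM) in UI, LP1 and LP4, with subunits in the upper row and inhibitors in the lower row. Bars start at 0 and have their own scale in each panel, and whiskers are exact Poisson 95% intervals for counting error. *Nfkbia* stood at 1926 CPM in LP1, above both other libraries, and *Bcl3* at 139 CPM in LP4.

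Among the subunits, *Nfkb1* encodes p105, the precursor of p50. Its level was 1257 CPM in UI (exact Poisson interval 1246 to 1269), 1303 in LP1 (1293 to 1313) and 1089 in LP4 (1081 to 1098). It was the most abundant subunit in all 3 libraries, with a log2 ratio of 0.05 (0.03 to 0.07) for LP1 over UI and -0.21 (-0.22 to -0.19) for LP4 over UI. The LP4 over UI value was -0.038 under TMM and -0.00049 under median of ratios scaling, so the size of that difference depended on the scaling. The gene spans chr3:135584655-135691547 on the minus strand of GRCm38, a length of 106893 bases. Each 3′ transcript end is counted once, so CPM is not divided by length, but whether reads in introns were counted is not given in the sources used here, and a long gene offers more intron.

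*Nfkb2* encodes p100, the precursor of p52, which serves the noncanonical pathway with RelB. It stood at 69.4 CPM in UI, 49.3 in LP1 and 102 in LP4. It was thus lowest at 1 hour, with a log2 ratio to UI of -0.49 (-0.57 to -0.41), and highest at 4 hours, with 0.56 (0.49 to 0.62). Between LP1 and LP4 it was 2.07 times higher in LP4, the only subunit past 2-fold in any comparison. The interval of that log2 ratio, 0.98 to 1.12, crossed the 2-fold limit.

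*Rel* encodes c-Rel, a subunit with a transactivation domain that is prominent in myeloid and lymphoid cells. Its level was 351 CPM in UI, 328 in LP1 and 208 in LP4. The log2 ratio was -0.10 (-0.13 to -0.07) for LP1 over UI and -0.75 (-0.79 to -0.72) for LP4 over UI, the lowest value of any member against UI. The LP1 over UI value was -0.027 under TMM and -0.023 under median of ratios scaling, so the size of that difference depended on the scaling. Because the libraries differ in depth per cell, the same gene gave 2.06 UMIs per cell in UI, 3.40 in LP1 and 2.74 in LP4. Deeper sequencing and more RNA per cell cannot be told apart in these counts.

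*Rela* encodes p65, the main activating partner of p50. It was among the least abundant members, at 59.9 CPM in UI, 53.7 in LP1 and 76.7 in LP4. The ratio on the log2 scale was -0.16 (-0.24 to -0.07) for LP1 over UI and 0.36 (0.28 to 0.43) for LP4 over UI.

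*Relb* encodes RelB, the usual partner of p52. Its level was 136 CPM in UI and lower at both times, with 115 in LP1 and 96.6 in LP4. The log2 ratio to UI was -0.24 (-0.29 to -0.18) at 1 hour and -0.49 (-0.55 to -0.44) at 4 hours. *Nfkb2* and *Relb*, whose products form a dimer, thus stood on opposite sides of UI in LP4.

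Promoter sequence was read for the members from RefSeq windows on GRCm38.p6, using the 250 bases before each start. 7 of the 10 members matched a window, and *Nfkb1*, *Relb* and *Nfkbiz* did not. Windows were searched on both strands for the kB consensus, the 10-base DNA motif that NF-kB dimers bind. It occurred in 7.25% of all 32851 windows. Counted by gene, 8.23% of 27025 genes had a window with it, as did 5 of the 7 members, and the same 5 held a stricter form found for 4.46% of genes. A match is a description of the letters and not a bound site. The stretches are printed because several members are themselves known NF-kB targets, with 30 bases on the coding strand of each gene and the matching bases in capitals. For the subunits, *Nfkb2* has 3 annotated starts and *Rel* 1, and overlapping matches together cover 11 bases at *Nfkb2* start 1 and at *Rel*. The capitals that open the second line are the end of the match on the first.
Nfkb2 start 1, chr19:46304688-46304717 plus strand: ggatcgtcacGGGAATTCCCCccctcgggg
Nfkb2 start 1, chr19:46304707-46304736 plus strand: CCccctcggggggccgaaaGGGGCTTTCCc
Nfkb2 start 2, chr19:46305449-46305478 plus strand: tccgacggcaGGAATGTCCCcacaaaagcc
Nfkb2 start 3, chr19:46305695-46305724 plus strand: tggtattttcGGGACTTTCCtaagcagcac
Rel, chr11:23771042-23771071 minus strand: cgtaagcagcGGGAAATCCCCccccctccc

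In these stretches the capitals begin 39, 11, 236 and 225 bases before the *Nfkb2* starts and 92 bases before the *Rel* start. *Nfkb2* was higher and *Rel* lower in LP4 than in UI, so a match stood in front of subunits with ratios of opposite sign. *Rela* had a window but no match in it.

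Among the inhibitors, *Nfkbia* encodes IkB alpha, the main cytoplasmic inhibitor and a classic early NF-kB target. Its level was 1199 CPM in UI (exact Poisson interval 1188 to 1211), 1926 in LP1 (1914 to 1938) and 1036 in LP4 (1028 to 1045). It was the most abundant member at 1 hour and second to *Nfkb1* in both other libraries. The log2 ratio was 0.68 (0.67 to 0.70) for LP1 over UI, -0.21 (-0.23 to -0.19) for LP4 over UI and -0.89 (-0.91 to -0.88) for LP4 over LP1. Of all genes tested between LP1 and UI, 2.79% had a ratio at least as high. Under median of ratios scaling the LP4 over UI value was -0.0039, so the size of that difference depended on the scaling.

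*Nfkbie* encodes IkB epsilon, a further cytoplasmic inhibitor. It was lower than UI at 1 hour and higher at 4 hours, with 70.9 CPM in UI, 54.9 in LP1 and 104 in LP4. The log2 ratio to UI was -0.37 (-0.45 to -0.29) at 1 hour and 0.55 (0.49 to 0.62) at 4 hours. Of these 2 members with cytoplasmic products, *Nfkbia* was thus highest in LP1 and *Nfkbie* lowest there.

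*Nfkbiz* encodes IkB zeta, a nuclear IkB protein that works as a cofactor for secondary response genes such as *Il6*. It followed *Nfkbia* in its order over the libraries, with 542 CPM in UI, 686 in LP1 and 343 in LP4. The log2 ratio was 0.34 (0.32 to 0.37) for LP1 over UI and -0.66 (-0.69 to -0.63) for LP4 over UI. Its LP4 over LP1 ratio of -1.001 (-1.03 to -0.98) lay on the 2-fold limit, and 4 alternatives put it on the other side.

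*Tnfaip3* encodes A20, a ubiquitin-editing enzyme that shuts off the signal upstream of the IkB kinase. It stood at 462 CPM in UI, 458 in LP1 and 530.4 in LP4. At 1 hour the difference was within counting error, with a log2 ratio to UI of -0.01 (-0.04 to 0.02) that changed sign under TMM scaling, and at 4 hours the log2 ratio was 0.20 (0.17 to 0.23).

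*Bcl3* encodes a nuclear IkB protein that binds p50 and p52 homodimers. It was the least abundant member in UI, at 46.7 CPM, and in LP1, at 35.2 CPM, and ranked sixth in LP4, at 139 CPM. The log2 ratio was -0.41 (-0.50 to -0.31) for LP1 over UI, 1.58 (1.5 to 1.65) for LP4 over UI and 1.98 (1.91 to 2.06) for LP4 over LP1. Of all genes tested between LP4 and UI, 4.81% had a ratio at least as high.

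Windows of *Nfkbia*, *Nfkbie* and *Tnfaip3* held the kB consensus. The 30 bases around the matches in *Nfkbie* and in the first of the 2 *Tnfaip3* starts are printed first, followed by all 250 bases before the starts of *Nfkbia* and *Bcl3*, the members with the largest ratios at 1 and 4 hours.
Nfkbie, chr17:45555584-45555613 plus strand: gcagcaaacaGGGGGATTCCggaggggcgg
Tnfaip3, chr10:19015516-19015545 minus strand: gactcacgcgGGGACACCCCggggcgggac
Tnfaip3, chr10:19015411-19015440 minus strand: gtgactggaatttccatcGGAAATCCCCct
Nfkbia, chr12:55492648-55492897 minus strand: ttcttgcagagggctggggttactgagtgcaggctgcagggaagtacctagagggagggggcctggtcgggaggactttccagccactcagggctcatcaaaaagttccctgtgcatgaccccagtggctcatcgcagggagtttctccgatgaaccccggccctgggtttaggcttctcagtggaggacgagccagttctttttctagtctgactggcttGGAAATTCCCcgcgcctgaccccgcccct
Bcl3, chr7:19822756-19823005 minus strand: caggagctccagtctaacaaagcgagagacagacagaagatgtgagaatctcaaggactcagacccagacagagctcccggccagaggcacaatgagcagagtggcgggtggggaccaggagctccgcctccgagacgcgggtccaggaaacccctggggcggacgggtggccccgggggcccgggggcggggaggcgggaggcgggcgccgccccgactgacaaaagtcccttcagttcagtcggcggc

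In *Nfkbia* the capitals begin 29 bases before the start, in *Nfkbie* 106 bases, and in *Tnfaip3* 125 and 12 bases. The *Bcl3* window and the second *Tnfaip3* window had no match, which says only that those letters were not in those bases.

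The order of the levels moved with treatment in a few places. In UI and LP1 the 6 most abundant members were *Nfkb1*, *Nfkbia*, *Nfkbiz*, *Tnfaip3*, *Rel* and *Relb*, with *Nfkbia* ahead of *Nfkb1* in LP1. In LP4 *Tnfaip3* passed *Nfkbiz*, and *Bcl3* moved above *Relb*. The Poisson intervals of neighbours overlapped only for *Nfkbie* and *Nfkb2* in UI and in LP4 and for *Nfkbie* and *Rela* in LP1.

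The ratios were then set against all genes with at least 10 CPM in 1 of the libraries compared. Between LP1 and UI, 0.697% of 7747 genes were at least 2-fold higher in LP1 and 0.465% at least 2-fold lower, and no member was either. At 1.5-fold, 4.12% of genes were higher and 2.74% lower, and 1 member, *Nfkbia*, was higher and none lower. Between LP4 and UI, 10.6% of 8019 genes were at least 2-fold higher and 9.91% at least 2-fold lower, and 1 of the 10 members, *Bcl3*, was higher and none lower. A share of 1 in 10 is near that background, so the count sets the members apart from other genes in neither direction.

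Between LP4 and LP1, 8.75% of 7956 genes were at least 2-fold higher in LP4 and 7.55% at least 2-fold lower. The members past the limit were *Nfkb2* and *Bcl3*, both higher, and *Nfkbiz*, lower. The intervals of *Nfkb2* and *Nfkbiz* crossed the limit. The background itself moved with the scaling, since 51.7% of the genes past 2-fold between LP4 and UI were higher with CPM, 65.6% with TMM and 68.4% with median of ratios. For LP4 over LP1 these shares were 53.7%, 61.8% and 64.6%, and for LP1 over UI 60.0%, 76.0% and 77.6%.

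By role, the median log2 ratio of the 5 subunits was -0.16 for LP1 over UI, -0.21 for LP4 over UI and -0.26 for LP4 over LP1. That of the 5 inhibitors was -0.01, 0.20 and 0.21, and that of all genes tested -0.02, -0.07 and -0.06. In each comparison the inhibitors' median was above that of the subunits, but both roles had members on each side of 0. In LP4 over UI, 2 of 5 subunits and 3 of 5 inhibitors were higher, and each role ran from a negative to a positive ratio.

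**Figure D2:**
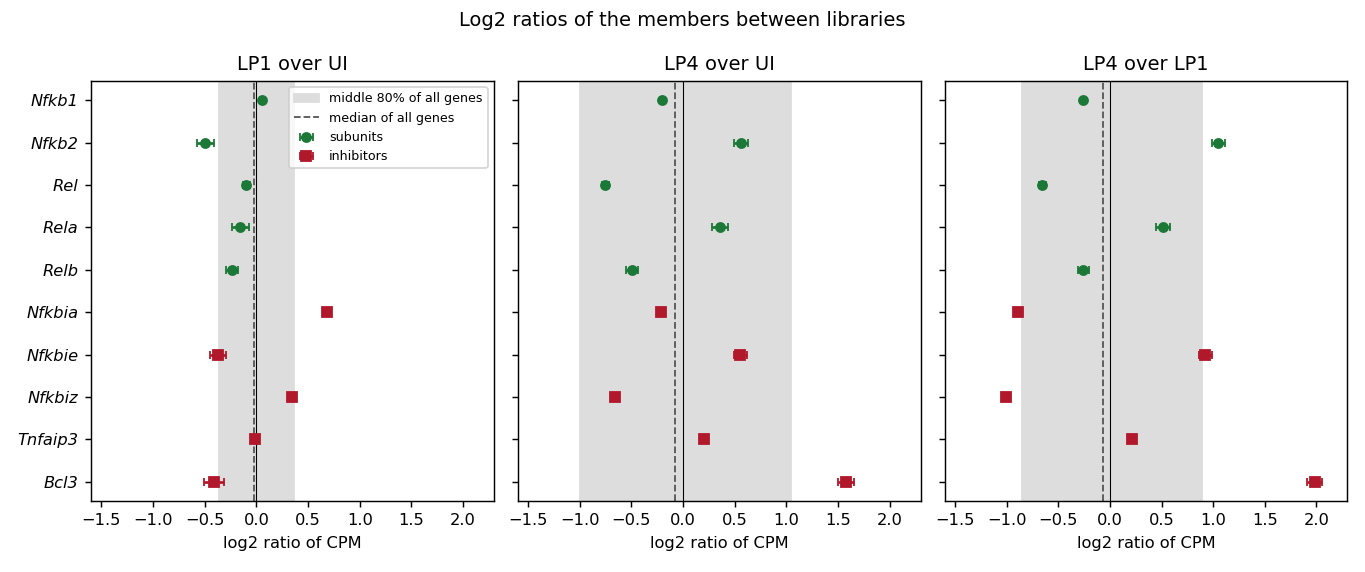
Log2 ratios of CPM for the 10 members in LP1 over UI, LP4 over UI and LP4 over LP1. Circles are subunits and squares inhibitors, whiskers are exact conditional binomial 95% intervals for counting error, the grey band holds the middle 80% of all genes tested and the dashed line their median. In LP1 over UI *Nfkbia* at 0.68 lies above the band, and *Nfkb2* at -0.49, *Bcl3* at -0.41 and *Nfkbie* at -0.37 lie below it. In LP4 over UI *Bcl3* at 1.58 is the only member beyond the band.

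Balance between the listed roles was also read without any scaling of the libraries, as the inhibitors' share of the UMIs of all 10 members. *Nfkbiz* is counted here as an inhibitor although its product works as a cofactor. The share thus describes the listed groups and does not measure inhibition against activation. The inhibitors held 55.3% in UI (exact binomial interval 55.1 to 55.6), 63.1% in LP1 (62.9 to 63.3) and 57.8% in LP4 (57.6 to 58.0). Over all kept cells the share was thus highest at 1 hour and above that of UI at 4 hours. *Nfkbia* alone made up 28.6% of the members' UMIs in UI, 38.4% in LP1 and 27.8% in LP4, and *Nfkb1* 29.97%, 26.0% and 29.2%.

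Without *Nfkbia* the order changed, and the share of the other inhibitors was 37.4% in UI, 40.0% in LP1 and 41.5% in LP4. Most of the difference between UI and LP1 was therefore that of one gene, whereas in LP4 *Tnfaip3* held 14.2% against 11.0% in UI and *Bcl3* 3.73% against 1.11%. Summed over each role, the subunits came to 1874 CPM in UI, 1849 in LP1 and 1573 in LP4, and the inhibitors to 2321, 3161 and 2153.

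**Figure D3:**
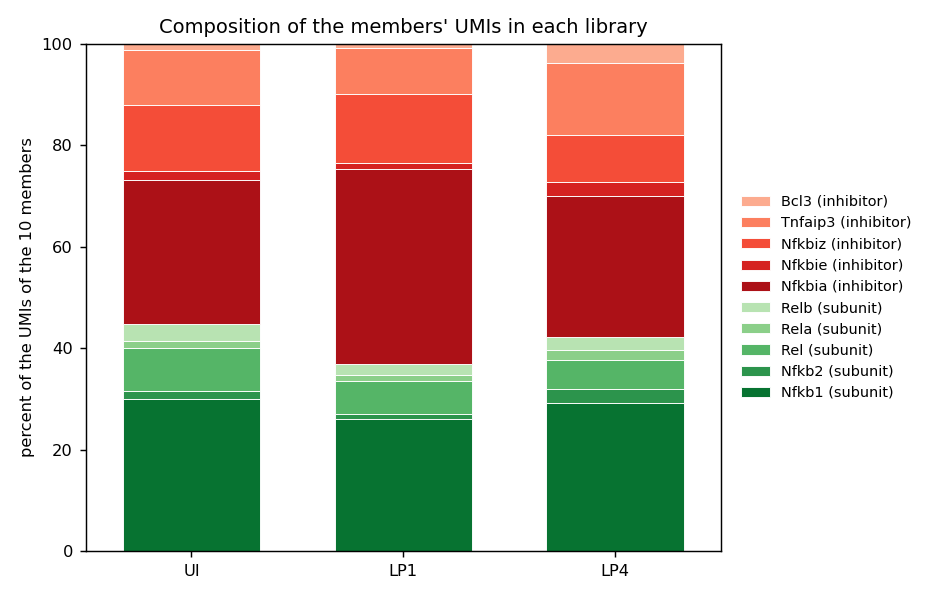
Percent of the UMIs of the 10 members held by each member in UI, LP1 and LP4, with subunits in green at the bottom and inhibitors in red above them. The inhibitor part is tallest in LP1, at 63.1%, and *Nfkbia* is the part that widens most there, to 38.4%.

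Turning to single cells, each cell was thinned to 2000 UMIs to compare shares across depths, which left 5949 cells in UI, 5052 in LP1 and 4625 in LP4 and left out 122, 13 and 45 shallower cells. *Nfkbia* had a UMI in 88.0% of thinned UI cells, 96.7% of LP1 cells (exact binomial interval 96.2 to 97.2) and 85.4% of LP4 cells. The unthinned shares were 98.0%, 99.8% and 99.2%. Cells with at least 5 thinned *Nfkbia* UMIs made up 13.5% of UI, 36.1% of LP1 and 9.25% of LP4, so the higher level at 1 hour was seen in many cells.

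For *Bcl3* the thinned share was 9.03% in UI, 6.33% in LP1 and 25.1% in LP4 (23.8 to 26.4), and the unthinned share 22.1%, 27.4% and 76.4%. The unthinned share was higher in LP1 than in UI while both the thinned share and the CPM were lower, and no order is read from it. *Rel* had a UMI in 49.4%, 47.9% and 31.8% of thinned cells, and *Nfkbiz* in 60.9%, 68.3% and 45.3%, in the order UI, LP1 and LP4.

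*Nfkb2* was found in 13.4%, 9.44% and 19.7% of thinned cells and *Nfkbie* in 13.3%, 10.4% and 19.5%, nearly equal in each library. *Relb* was found in 23.3%, 20.6% and 17.3%, *Rela* in 11.6%, 10.4% and 14.6%, *Tnfaip3* in 57.3%, 57.1% and 62.3%, and *Nfkb1* in 85.8%, 86.8% and 85.4%. Each member's thinned shares had the same order over the libraries as its CPM, with overlapping intervals between all libraries for *Nfkb1* and between UI and LP1 for *Rel*, *Rela* and *Tnfaip3*. No cell type in the culture is known to lack these genes, so no share due to free RNA could be set beside them.

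**Figure D4:**
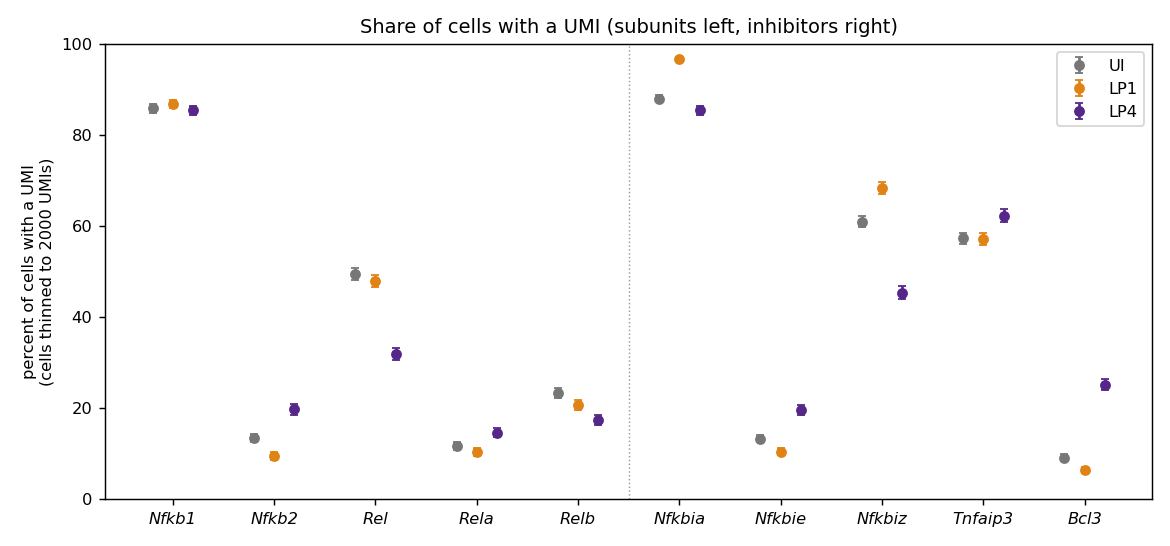
Percent of cells with at least 1 UMI of each member after thinning to 2000 UMIs per cell, with subunits left of the dotted line and inhibitors right of it. Points are libraries and whiskers exact binomial 95% intervals for counting error. *Bcl3* stands at 25.1% in LP4 against 9.03% in UI, and *Rel* at 31.8% against 49.4%.

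For spread between cells, the variance of thinned counts over their mean (1 for pure counting noise) differed more between genes than between libraries. It was 1.81 for *Nfkb1* in UI, 1.75 in LP1 and 1.46 in LP4. *Nfkbiz* had 1.48 in UI and LP1 and 1.58 in LP4. *Nfkbia* stayed between 1.29 and 1.35 although its mean went from 2.51 to 3.91 and 2.16 thinned UMIs per cell, and the low members *Nfkb2*, *Rela*, *Relb*, *Nfkbie* and *Bcl3* lay between 0.99 and 1.07. Their thinned means were only 0.07 to 0.30 UMIs per cell, and so low a mean draws this ratio towards 1. It therefore does not show that these genes vary less between cells.

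Within cells the members were close to uncorrelated at this depth. Over thinned cells of 1 library, none of the 45 pairs of members reached a Spearman correlation of 0.2, and the highest was 0.13 in UI (*Nfkb1* with *Nfkbiz*), 0.08 in LP1 (*Nfkb1* with *Rel*) and 0.11 in LP4 (*Nfkb1* with *Tnfaip3*). These are descriptions over cells that share a library, and with so few UMIs per cell a weak value is no finding. The median thinned cell held a UMI of 4 of the 10 members in each library. At least 1 inhibitor was seen in 97.6% of UI, 99.2% of LP1 and 97.2% of LP4 cells.

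Clusters were used to ask whether the responses held across kinds of BMDM. They were made without the members' own counts, from genes that differed under 1.5-fold between the libraries, centred within library. This left out part of the cell states set by the response itself, and it favoured mixing of the libraries. Neither was complete. At a finer resolution (0.8), 1009 of the 1121 cells in 1 cluster were from LP4. Another cluster there held 1536 cells from UI and 95 from LP4. A to F had at least 50 cells in every library, 15664 cells in all, and were compared. By marker genes A to D were macrophage-like, with *Egr3* and *Apoe* (A), *Fat3* and *Fgf13* (B), *Gpr183* and *Ccnd1* (C), and *Mgll* and *Eef1a2* (D) among their leading genes. The leading genes of C also included *Nos2* and *Ch25h*, which the paper reports as upregulated in LP4. Those of D also included *Itgb3*, *Ctsk*, *Atp6v0d2* and *Mmp9*. In D, 6 of the 12 macrophage markers were found in at least 50% of cells, the fewest of A to E. E was led by histone and mitosis genes such as *Hist1h1b* and *Top2a*, and F, with 213 cells, was dendritic cell-like, led by *H2-Eb1* and *H2-Aa*. That name rested on these genes with *H2-Ab1* and *Cd74*. Of the 12 dendritic cell markers, 6 were under 1 CPM over each whole library, *Flt3*, *Xcr1* and *Clec9a* among them. In F, 7 of the 12 macrophage markers were found in at least 50% of cells. A neutrophil-like cluster of 85 cells and a stromal cell-like one of 57 were too small to compare.

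In every cluster of A to F, *Nfkbia* was higher in LP1 than in UI, with log2 ratios from 0.60 in C to 1.07 in D. *Nfkbiz* and *Nfkb1* were also higher in all 6, from 0.22 (E) to 0.74 (D) and from 0.02 (C) to 0.29 (D), where the *Nfkb1* intervals included 0 in B, C and F. *Nfkb2*, *Relb*, *Nfkbie* and *Bcl3* were lower in all 6, though the intervals included 0 for *Nfkb2* in D, *Relb* in C, *Bcl3* in E and all but *Nfkbie* in F. In LP4 over UI, *Bcl3* was higher in all 6, from 1.12 in D to 1.72 in C, as were *Nfkb2*, from 0.26 to 0.75 with an interval that included 0 in F, and *Rela*, from 0.09 to 0.44 with intervals that included 0 in E and F. *Nfkb1*, *Rel*, *Relb* and *Nfkbiz* were below 0 in all 6 for LP4 over UI on CPM. The intervals included 0 for *Nfkb1* in A, *Rel* and *Nfkbiz* in D and *Relb* in F. In a coarser clustering (resolution 0.3) *Rela* was higher in LP4 over UI in 3 of 4 clusters, and in a finer one (0.8) in 6 of 8. *Nfkb1* was higher in LP1 over UI in 7 of 8 clusters of the finer one. The other directions given above held in every compared cluster at both resolutions, all on CPM. Cluster ratios were not made under other scalings. Over all kept cells, *Nfkb1* in LP4 over UI was -0.038 under TMM and -0.00049 under median of ratios. The sign of cluster ratios near 0, such as -0.04 for *Rel* and -0.03 for *Nfkbiz* in D, may thus depend on the scaling. The cluster with 1009 LP4 cells was not compared, since it had only 44 cells from LP1.

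*Rel* was lower in LP4 than in UI by differing amounts, with a log2 ratio of -1.12 (-1.19 to -1.05) in A, -0.56 (-0.62 to -0.50) in B and -0.04 (-0.15 to 0.08) in D. Its UI level was 451 CPM in A and 210.2 in D, and in LP4 it was 208 in A and 205 in D. *Nfkbie* was higher in LP4 in A to D, by 0.40 to 0.82, but -0.01 (-0.27 to 0.26) in E and -0.32 (-0.85 to 0.23) in F.

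Cluster D stood apart from the other clusters in its levels. In each library it had the lowest level of the 6 clusters for 8 of the 10 members. *Nfkbiz* in UI was 186 CPM in D and 526 to 693 in the others, and *Nfkbia* was 703 CPM in D and 1141 to 1360 in the others. D also had the lowest inhibitor share among the macrophage-like clusters in UI, 51.8% (50.9 to 52.8), and reached 62.7% in LP1, within the range of 61.8% to 64.7% of A to C. In A to D the share was highest in LP1 and above UI in LP4. In E the LP4 share was 57.8% (57.0 to 58.5) against 58.4% (57.6 to 59.2) in UI. In F it was highest in LP4, 60.0% (58.4 to 61.6) against 56.0% (54.3 to 57.6) in LP1. Differences between clusters have no replicate and were not tested.

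**Figure D5:**
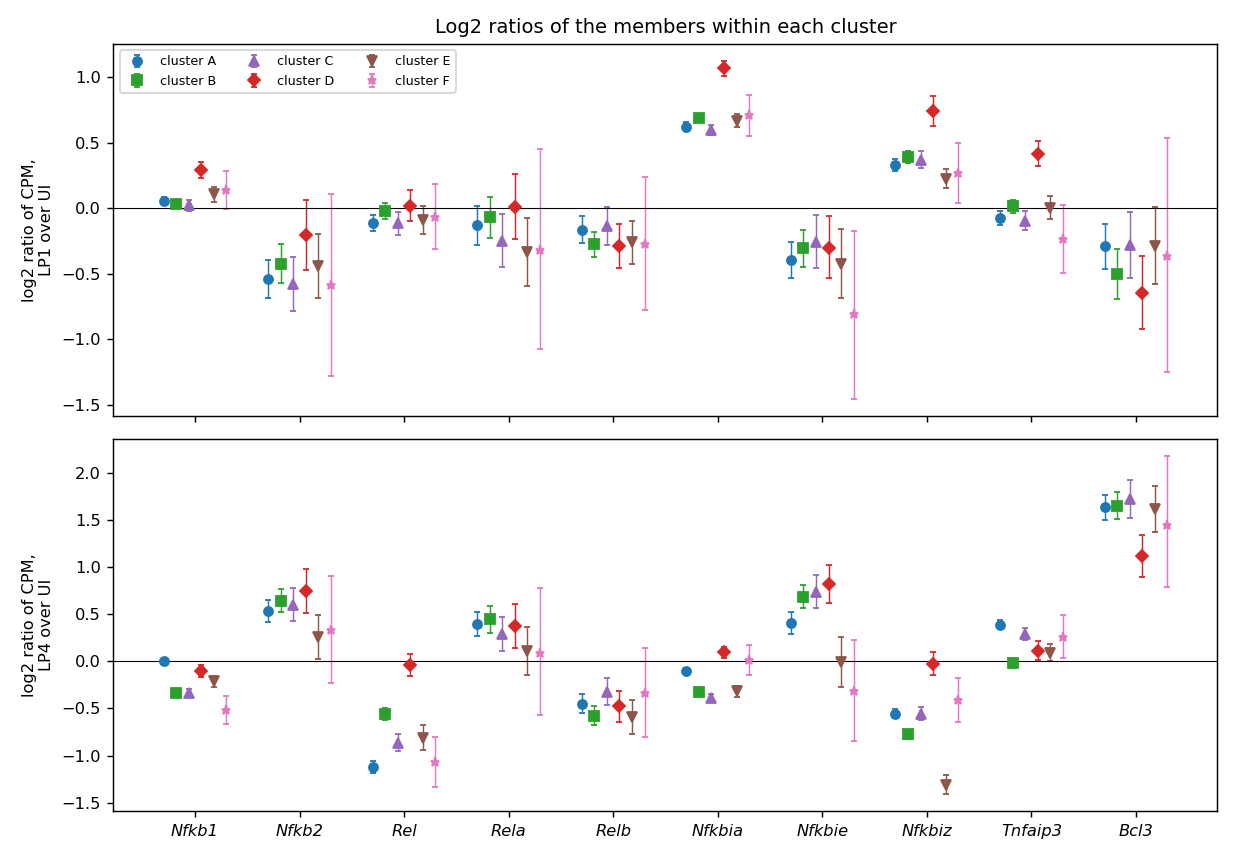
Log2 ratios of CPM of each member within clusters A to F for LP1 over UI (top) and LP4 over UI (bottom), with exact conditional binomial 95% intervals for counting error. *Nfkbia* lies above 0 in all 6 clusters in LP1, and cluster D (red diamonds) has the highest ratio there, 1.07.

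The genes most alike to each member were found over 18 sums of UMIs, 6 clusters in 3 libraries, from Pearson's r of log2(CPM + 10) among 3634 genes. These sums share libraries and depth, so r is a description. *Bcl3* was most like *Pml* (r = 0.98), *Il4ra* (0.98) and *Sbno2* (0.98), all highest in LP4, where *Il4ra* went from 31.6 CPM in UI to 647. *Nfkbia* was most like *Junb* (0.93), *Cxcl1* (0.93) and *Phlda1* (0.91), all highest in LP1, and *Junb* stood at 606, 1231 and 509 CPM in UI, LP1 and LP4. *Nfkb2* was most like *Nod2* (0.96), *Mt1* (0.94) and *Slfn2* (0.92), and *Slfn2* was also among the first 3 of *Nfkbie* (0.90), after *Snx6* (0.92) and *Ifnar1* (0.91).

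For *Rel* the most alike were *Ankrd11* (0.94), *Rabgef1* (0.93) and *Ccnl1* (0.92), and for *Relb* they included *Eef2* (0.92) and *Ankrd11* (0.89). *Nfkbiz* was nearest *Bcl2l11* (0.94), *Klf6* (0.92) and *St3gal1* (0.92), *Tnfaip3* nearest *Mapk6* (0.93), *Il10* (0.90) and *Ets2* (0.89), *Rela* nearest *Klf3* (0.91), *Ms4a4a* (0.91) and *Rassf2* (0.91), and *Nfkb1* nearest *Kcnk13* (0.94), *Pde4b* (0.93) and *Lrrfip1* (0.92).

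Other genes of the pathway were described from 3 lists, whose counts past 2-fold were made on CPM alone and not under other scalings. Of the other IkB proteins and negative regulators, 16 of 18 had enough UMIs, and in LP1 over UI none passed 2-fold, against 0.697% of all genes higher and 0.465% lower, with *Commd1* (0.50), *Rnf11* (0.38) and *Tnip3* (0.11) highest and *Nfkbid* (-0.41) and *Otulin* (-0.52) lowest on the log2 scale. In LP4 over UI, 3 of 16 were at least 2-fold higher and 2 lower, where 10.6% of all genes were higher and 9.91% lower. The list median was 0.63 against -0.07 over all genes. *N4bp1* (1.61), *Tnip2* (1.15), a partner of A20, and *Rnf11* (1.03, interval 0.92 to 1.14) were the highest. *Otulin*, a deubiquitinase of linear chains, had -1.01 (-1.06 to -0.95), and *Nfkbid*, which encodes the nuclear protein IkB-NS, had -4.02 (-4.15 to -3.89). The intervals of *Rnf11* and *Otulin* crossed the 2-fold limit.

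The nuclear IkB genes therefore differed in direction in LP4. *Nfkbid* stood at 149 CPM in UI, 112 in LP1 and 9.17 in LP4, *Nfkbiz* at 343 CPM in LP4 was below UI, and *Bcl3* was above it.

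Of the IkB kinase complex and upstream signaling genes, 19 of 22 could be compared in LP1 over UI. None passed 2-fold, against 0.697% of all genes higher and 0.465% lower, and the list median was -0.16 against -0.02 over all genes. *Ube2n*, a ubiquitin-conjugating enzyme, was highest (0.62) and the only gene past 1.5-fold, beside 4.12% of all genes higher and 2.74% lower. It was followed by *Chuk* (0.23), which encodes IKK alpha, and *Traf6* (0.09), while *Tab1* (-0.43) and *Sharpin* (-0.47) were lowest. In LP4 over UI, 6 of 22 were at least 2-fold higher and 2 lower, beside 10.6% and 9.91% of all genes, with a median of 0.22 against -0.07. *Map3k8*, the kinase Tpl2 that p105 holds, had 1.68, *Traf2* 1.36 and *Tab2* 1.29, and *Tab1* had -1.25 and *Map3k14*, the kinase NIK of the noncanonical pathway, -1.33. Of the genes counted as higher, all but *Map3k8*, *Traf2* and *Tab2* had intervals that crossed the 2-fold limit.

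Known NF-kB target genes, a list of 27, had 23 with enough UMIs in LP1 over UI, of which 4 were at least 2-fold higher and none lower, beside 0.697% and 0.465% of all genes. *Ccl2* (1.40), *Ccl4* (1.35) and *Sod2* (1.09) were highest and *Irf1* (-0.19) and *Cd80* (-0.41) lowest, with a list median of 0.06 against -0.02 over all genes. The other gene counted as higher had an interval that crossed the 2-fold limit. In LP4 over UI, 11 of 25 were at least 2-fold higher and 6 lower, beside 10.6% and 9.91% of all genes, with a median of 0.39 against -0.07. Among the genes counted as lower, not every interval lay wholly past the 2-fold limit. *Nos2*, which encodes inducible nitric oxide synthase, had a log2 ratio of 8.92 (8.18 to 9.79), from 0.392 to 190.4 CPM, *Ccl5* 4.89 and *Il6* 4.5, whereas *Tnf* had -1.58 and *Cd80* -1.64. *Tnf* stood at 839.8 CPM in UI, 1119 in LP1 and 280.4 in LP4, so this early target was highest in the same library as *Nfkbia*.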

How the data were processed

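The authors aligned 10x Genomics 3′ reads to mouse mm10 with Cell Ranger (7.1.0 in the submitters' processing notes) and deposited UMI counts per gene and barcode, not normalized, in the barcodes called as cells. Whether introns were counted is not given in the sources used here. No column was left unused (0).

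From these counts, the study's limits on barcodes were applied (UMIs and genes each above 500, mitochondrial share below 5%), which kept 99.2% in UI, 98.9% in LP1 and 92.7% in LP4. The 15806 cells kept are more than the study states for its own filtering, so the cell sets differ. UMIs were summed per library and scaled to CPM. Intervals were exact Poisson (CPM), conditional binomial (ratios) and binomial (shares). Clusters came from 2000 variable genes, chosen without the members among genes that differed under 1.5-fold between the libraries. Values were centred within library. The clusters then used 30 principal components, 20 neighbours and the Leiden method (resolution 0.5), and were named from marker lists. Doublets were kept, and the 5% of cells with the highest doublet scores were left out as an alternative. Thinning used a seed of 20.

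The members and lists were chosen with earlier results of these data known. Named beside all members are, per pathway list and comparison with UI, the 3 highest and 2 lowest ratios among genes with at least 10 CPM in 1 library, and, per member, the 3 genes most alike among those with at least 50 CPM in 1 library. The result for 1 gene that this rule names is not reported here. Positions are from GENCODE vM21 on GRCm38.

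Clustering used scanpy 1.11.5 (leidenalg 0.10.2, igraph 0.11.9, scikit-learn 1.9.0) under Python 3.11.15. Sums and intervals used scipy 1.17.1 and pandas 2.3.3 with numpy 2.4.6, and TMM factors came from edgeR 4.0.16 (R 4.3.3). When tested on simulated data, the ratio had the true sign for 100% of 200 changed genes in each comparison, and its interval held the true value for 94% in LP1 over UI (7526 genes), 95.5% in LP4 over UI (7526) and 95.5% in LP4 over LP1 (7543). The simulated counts held Poisson counting noise only. They therefore check the calculation and cannot speak to variation between cultures. Alternatives were other cell filters, scalings, clusters, minimum levels and thinning depths. Other experiments of the study were not analysed here.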

Additional observations from a re-analysis of the deposited data

Results flagged for a closer look

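For 2 members, *Tnfaip3* and *Nfkbia*, clusters lay on both sides of 0 beyond counting error on CPM, and none of these differences was tested. Ratios within clusters were made on CPM alone, so whether these signs hold under another scaling was not measured. Over all kept cells, *Tnfaip3* in LP1 over UI was -0.013 on CPM and 0.059 under TMM. *Rel* and *Rela* in LP1 over UI and *Nfkbie* in LP4 over UI also had ratios of both signs, with intervals that included 0 on one side. *Tnfaip3* in LP1 over UI had a log2 ratio of 0.41 (0.32 to 0.51) in cluster D, whereas in A it was -0.08 (-0.13 to -0.03) and in C -0.10 (-0.17 to -0.03). Its highest and lowest clusters were 0.65 apart. In LP4 over LP1 the same gene had -0.30 (-0.38 to -0.22) in D and 0.47 (0.42 to 0.51) in A, and its highest and lowest clusters were 0.80 apart.

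*Nfkbia* in LP4 over UI had a log2 ratio of 0.10 (0.03 to 0.16) in D and -0.39 (-0.43 to -0.35) in C, a difference of 0.49 between the highest and the lowest cluster. A, B and E were also below 0 beyond counting error on CPM, with A at -0.10 (-0.13 to -0.07). Over all kept cells this *Nfkbia* ratio was -0.210 on CPM, -0.041 under TMM and -0.0039 under median of ratios. The cluster ratios were not rescaled, and the sign in A may depend on the scaling.

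In barcodes over the mitochondrial limit, which no comparison above used, *Nfkbia* stood at 1786 CPM in LP1 (43 barcodes, exact Poisson interval 1636 to 1947) against 1047 CPM in UI (18 barcodes, 744 to 1431). In the same barcodes *Nfkb1* stood at 1269 CPM in LP1 (1143 to 1406) against 1825 in UI (1417 to 2314), whereas in the kept cells it was higher in LP1.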

How the results depend on the processing

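Over 10 alternative cell filters and scalings, 2 of 300 log2 ratios of single members changed sign, both for *Tnfaip3* in LP1 over UI, which became 0.059 under TMM and 0.063 under median of ratios scaling, and 68 lay outside the counting interval, 55 of them under another scaling. In LP4 over UI, TMM raised the median of all genes by 0.18 and median of ratios by 0.22. TMM gave a median log2 ratio of -0.038 for the subunits and 0.37 for the inhibitors in LP4 over UI, -0.16 and 0.31 in LP4 over LP1, and 0.059 for the inhibitors in LP1 over UI. Median of ratios gave -0.00049, 0.41, -0.13, 0.34 and 0.063 for the same medians. Means of the cells' shares gave -0.14 and 0.26 in LP4 over UI and -0.19 and 0.30 in LP4 over LP1, and leaving out mitochondrial and ribosomal protein genes gave -0.23 for the subunits in LP4 over UI. *Nfkbiz*, at the 2-fold limit in LP4 over LP1, left 0 members at least 2-fold lower under TMM, median of ratios, means of the cells' shares and without the highest doublet scores. The inhibitor share was 37.4%, 40.0% and 41.5% in UI, LP1 and LP4 without *Nfkbia*, 56.1% in UI and 63.7% in LP1 as a mean over cells, and 57.6% in LP4 in macrophage-like clusters (A to E) alone. With a minimum of 1 CPM, 1.56% of all genes were at least 2-fold lower in LP1 than in UI, and 13.9% in LP4 than in UI. With a minimum of 50 CPM, 13.0% were at least 2-fold higher in LP4 than in UI and 8.75% lower. Under other minimum levels, 9 of these shares of all genes lay outside the counting interval and 3 within it. All 90 shares of cells with a UMI under another depth of thinning, or none, lay outside the counting interval. The other counts of members kept their value or stayed within 1.5 times. No replicate could be left out. No paired analysis was possible because each condition has 1 library. Cluster F rests on 64 to 78 cells per library, which limits the precision of its values.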
